A study of Saccharomyces cerevisiae with 16 samples.

Results

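Genes of meiosis and sporulation were followed in the wine yeast Lalvin EC1118, an industrial strain of Saccharomyces cerevisiae, while it fermented an artificial must. The members, 45 in all, were taken from a fixed list of symbols, and each was matched by its open reading frame name to 1 of the 6256 gene probes on the arrays. They fall into 7 regulators, 20 early genes, 14 middle genes and 4 late genes. In the mixed fermentations, cells of Dekkera bruxellensis strain ZIM 701, a spoilage yeast, grew in the same reactor on the far side of a dialysis membrane; control reactors held S. cerevisiae alone, and that side was left sterile. Both kinds were run in duplicate at 22 °C and the S. cerevisiae cells were sampled in exponential growth at 22 h, in early and late stationary phase at 92 h and 144 h, and in decline at 187 h. This gave 16 one-colour arrays in 8 groups of 2, all of the same strain and medium.

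Sporulation is the response of a diploid budding yeast cell to starvation, in which meiosis is followed by packaging of the 4 nuclei into spores. The transcription factor Ime1 joins the DNA-binding protein Ume6 to switch on the early genes, whose products break, pair and recombine the chromosomes. The kinase Ime2 and the transcription factor Ndt80 then turn on the middle genes, which drive the nuclear divisions and build the prospore membrane, and the late genes finish the spore wall. Sugar and nitrogen hold this cascade back in growing cells, and a cell needs both mating types (MATa and MATalpha) to enter it.

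Levels are given as log2 of the processed signal minus the 75th percentile of the array, so that a level of 0 equals that percentile and nearly all members lie below it. The 75th percentile of the processed intensity was 5260 to 7432 on the 22 h arrays, 3206 to 4270 at 92 h, 2559 to 3704 at 144 h and 1435 to 2661 at 187 h. Of the 45 members, 30 were well above background on all 16 arrays, 6 on 9 to 15 arrays, 7 on 1 to 8 arrays and 2, MER1 and SPS2, on none. The 43 members other than MER1 and SPS2 were tested with limma, fitted on 6184 probes, and "rose" and "fell" below stand for an adjusted p under 0.05. The 34 probes of the arrays that were never above background had a median log2 difference of 0.32 for 92 h minus 22 h, 0.25 for 144 h minus 92 h, 0.64 for 187 h minus 144 h, 1.23 for 187 h minus 22 h and 0.76 for mixed minus control at 187 h, and the part of such a shift in the values of dim members was not tested. All arrays of replicate 1 were on 1 slide and all of replicate 2 on the other, with mixed and control arrays in separate rows and each time in its own column, so place on the slide and group cannot be told apart by layout. Whether the arrays with the same number and kind share a reactor, sampled repeatedly, is not stated in the labels. P-values therefore measure the spread between these arrays, which may be technical in part.

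**Figure D1:**
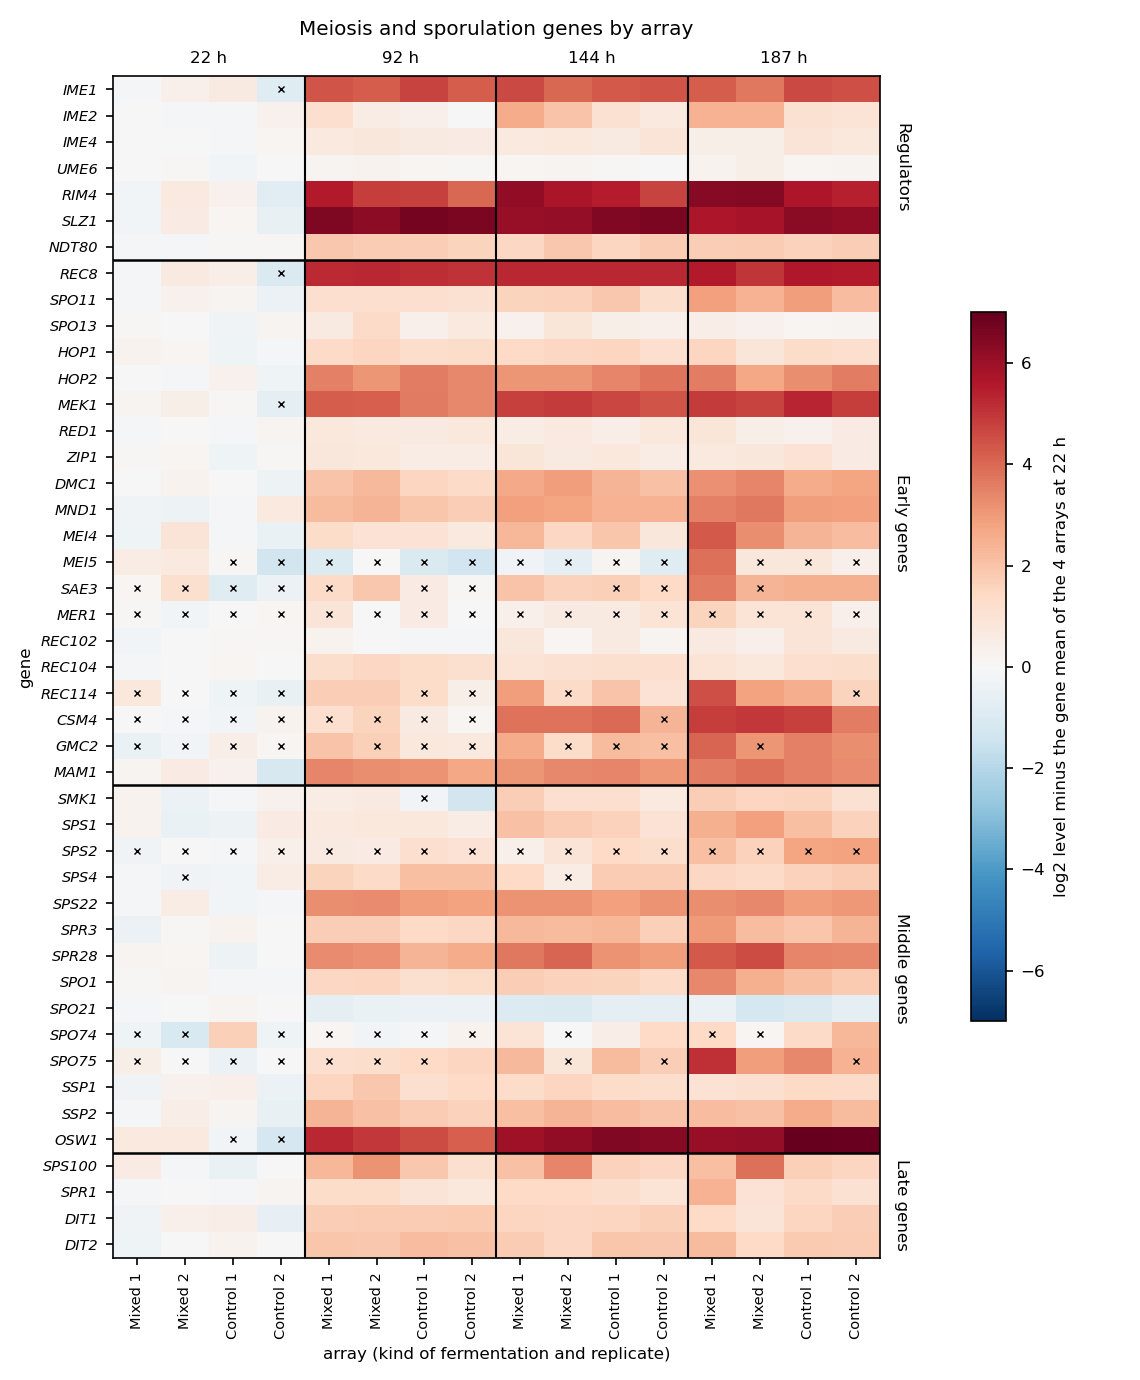
Level of each of the 45 members (rows, by role) on each of the 16 arrays (columns, by time, mixed left of control), as the log2 level minus the mean of that gene over the 4 arrays of 22 h; a cross marks an array on which the probe was not well above background. Most rows turn from near 0 at 22 h to positive values on all 12 later arrays, SLZ1, RIM4, REC8 and OSW1 most of all, while SPO21 turns slightly negative.

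The members rose together when the cells left exponential growth. From 22 h to 92 h, averaged over both kinds of fermentation (4 arrays against 4), 37 of the 43 tested members rose and 1, SPO21, fell, beside 65.3% of all tested probes that changed, 36.2% rising and 29.2% falling. The median log2 difference was 1.33 over all members and 0.07 over the 6184 tested probes, and the members' median was 1.33 on slide 1 and 1.35 on slide 2. By role, 6 of 7 regulators, 17 of 19 early genes, 10 of 13 middle genes and all 4 late genes rose, with medians of 1.74, 1.21, 1.40 and 1.89. Among the 30 members that were well above background on all arrays, 27 rose and SPO21 fell, with a median of 1.40, beside 35.8% of all such probes that rose. The remaining 10 rises include 4 genes that were above background on no array at 22 h (SAE3, REC114, GMC2 and SPO75) and CSM4, which was above background on no array at 22 h or 92 h. In these bulk samples, a change in the number of cells expressing a gene and a change in its RNA per cell cannot be told apart.

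Of the regulators, IME1 (YJR094C), which encodes the transcription factor that starts the cascade, went up strongly and then stayed. Its levels on the mixed arrays were -8.96 and -8.47 at 22 h, -4.41 and -4.57 at 92 h, -4.22 and -4.81 at 144 h, and -4.59 and -5.12 at 187 h. On the control arrays they were -8.18 and -9.70 at 22 h, -4.11 and -4.58 at 92 h, -4.52 and -4.40 at 144 h, and -4.22 and -4.30 at 187 h. The 12 later arrays lay above all 4 arrays of 22 h, and the rise from 22 h to 92 h was 4.41 ± 0.28 (log2, SE; adjusted p = 2.06e-07). One of the 4 arrays at 22 h, the second control, was not well above background for this probe.

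RIM4 (YHL024W) encodes an RNA-binding protein needed for expression of early genes, and SLZ1 (YNL196C) a partner of the mRNA methyltransferase Ime4. RIM4 stood at -6.39 and -5.51 on the mixed arrays at 22 h, -0.64 and -1.34 at 92 h, 0.01 and -0.46 at 144 h, and 0.19 and 0.26 at 187 h. On the control arrays it stood at -5.87 and -6.95 at 22 h, -1.38 and -2.16 at 92 h, -0.69 and -1.47 at 144 h, and -0.54 and -0.75 at 187 h. At 187 h both mixed arrays lay above the 75th percentile of all genes and both control arrays below it. The difference between the kinds did not pass at 187 h (0.87 ± 0.43, adjusted p = 0.201) or in the average over times (adjusted p = 0.0542). Its rise from 22 h to 92 h was 4.80 ± 0.30 (adjusted p = 1.75e-07). SLZ1 had the largest rise of any member and of any probe on the array, 6.53 ± 0.18 (adjusted p = 1.36e-09), with levels of -1.28 and -1.57 (mixed) and -1.11 and -1.25 (control) at 92 h, against -8.05 and -7.25 (mixed) and -7.69 and -8.35 (control) at 22 h.

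The remaining regulators changed less. NDT80 (YHR124W), the activator of the middle genes, was at -2.76 and -2.87 (mixed) and -2.89 and -3.08 (control) at 92 h, against -4.70 and -4.72 (mixed) and -4.56 and -4.55 (control) at 22 h, a rise of 1.73 ± 0.11 (adjusted p = 1.65e-07). IME4 (YGL192W), the mRNA methyltransferase itself, rose by 0.66 ± 0.09 (adjusted p = 8.42e-05) and IME2 (YJL106W), the meiotic kinase, by 0.53 ± 0.18 (adjusted p = 0.0208). UME6 (YDR207C), which in growing cells represses the early genes, did not pass the test (0.16 ± 0.08, adjusted p = 0.108), and its 16 levels lay between -4.23 and -3.63. The levels of IME4 on all 16 arrays lay between -2.11 and -1.04, so that it and UME6 moved little over the whole fermentation while IME1, RIM4 and SLZ1 moved far.

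**Figure D2:**
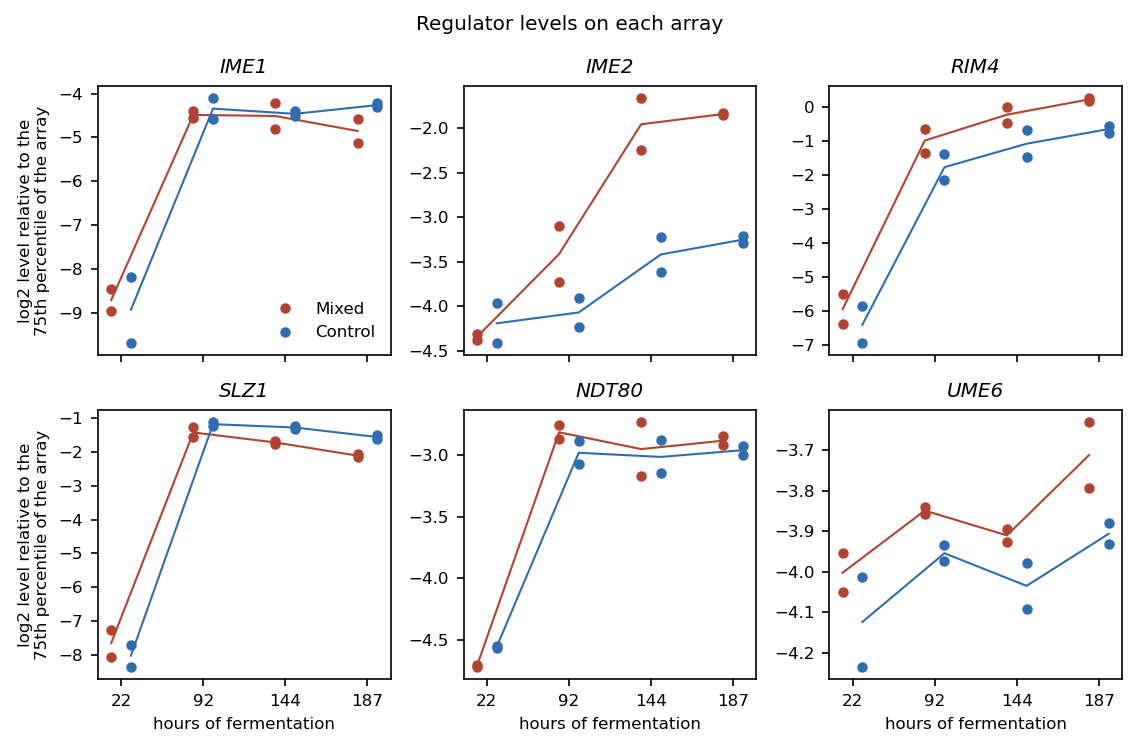
Log2 level relative to the 75th percentile of the array (vertical axis, own range in each panel) of 6 regulators by hours of fermentation; points are single arrays, lines join the means of 2, and mixed points are drawn left of control points. IME1, SLZ1 and NDT80 reach their level by 92 h in both kinds, and the IME2 points of the kinds overlap at 22 h and not later, with mixed arrays at -1.67 and -2.25 and control arrays at -3.22 and -3.61 at 144 h.

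Of the early genes, the largest rises from 22 h to 92 h were in REC8 (YPR007C), the meiotic cohesin subunit, by 5.17 ± 0.27 (adjusted p = 3.94e-08), and in MEK1 (YOR351C), the kinase that steers recombination to the homologous chromosome, by 3.85 ± 0.17 (adjusted p = 1.58e-08). REC8 levels were -3.23 and -3.15 (mixed) and -3.30 and -3.41 (control) at 92 h, against -8.53 and -7.79 (mixed) and -7.99 and -9.45 (control) at 22 h. They then stayed between -3.45 and -2.85 on the 8 arrays of 144 h and 187 h. HOP2 rose by 3.39 ± 0.20 and its partner MND1 by 2.06 ± 0.14, which together help the meiotic recombinase Dmc1 to pair strands, and DMC1 itself by 1.77 ± 0.13. MAM1, a subunit of the monopolin complex that joins sister kinetochores in the first division, rose by 3.13 ± 0.25.

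HOP1, an axis protein, rose by 1.34 ± 0.14 (adjusted p = 6.03e-06), and RED1, its axis partner, by 0.70 ± 0.12. SPO11, which makes the DNA breaks that start recombination, rose by 1.14 ± 0.21 (adjusted p = 0.000586), and ZIP1, the central element of the synaptonemal complex, by 0.66 ± 0.12 (adjusted p = 0.000503). The SPO11 levels were -6.28 and -6.28 (mixed) and -6.24 and -6.35 (control) at 92 h, against -7.53 and -7.12 (mixed) and -7.22 and -7.84 (control) at 22 h, so the times did not overlap. Of its helpers in break formation, REC104 rose by 1.29 ± 0.10, REC114 by 1.28 ± 0.44 (above background on no array at 22 h) and MEI4 by 0.99 ± 0.34, while REC102 did not pass (0.03 ± 0.16, adjusted p = 0.899). MEI5, which with SAE3 loads Dmc1 onto DNA, did not pass either (-0.84 ± 0.56, adjusted p = 0.203) and was well above background on 3 of 16 arrays.

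Of the middle genes, OSW1 (YOR255W), needed for the outer spore wall, rose most, by 4.74 ± 0.20 (adjusted p = 1.49e-08). Its levels were -4.00 and -4.37 (mixed) and -4.75 and -5.11 (control) at 92 h, against -8.61 and -8.61 (mixed) and -9.50 and -10.49 (control) at 22 h, where neither control array was well above background. The spore wall gene SPS22 rose by 3.07 ± 0.13. Of the sporulation septins, which line the prospore membrane, SPR28 (YDR218C) rose by 2.87 ± 0.12 (adjusted p = 1.36e-08) and SPR3 by 1.56 ± 0.20 (adjusted p = 3.28e-05). SPS4, a middle gene of unclear role, rose by 1.77 ± 0.18, and SSP1, of the protein coat at the leading edge of the prospore membrane, by 1.46 ± 0.18.

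Not all middle genes took part. SPO21 (YOL091W), which encodes a scaffold of the meiotic spindle pole body plaque on which the prospore membrane forms, fell by 0.47 on the log2 scale (SE 0.15, adjusted p = 0.0152). Its levels were -5.18 and -4.99 (mixed) and -4.94 and -4.93 (control) at 92 h, against -4.70 and -4.57 (mixed) and -4.34 and -4.54 (control) at 22 h, with no overlap between the times. SMK1, the mitogen-activated kinase of spore wall formation, did not pass at this step (-0.09 ± 0.25, adjusted p = 0.764), and SPS1, another kinase of spore formation, rose by 0.67 ± 0.23 (adjusted p = 0.0226). SPO74, a partner of SPO21 in the plaque, did not pass (0.01 ± 0.45) and was well above background on 6 of 16 arrays.

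All 4 late genes rose from 22 h to 92 h and were well above background on every array. SPS100 (YHR139C), a spore wall protein, rose by 2.12 ± 0.40 (adjusted p = 0.000597). DIT1 and DIT2, which make the dityrosine of the outermost wall layer, rose by 1.77 ± 0.21 (adjusted p = 1.85e-05) and 2.01 ± 0.16 (adjusted p = 8.95e-07), and SPR1, a glucanase of the spore wall, by 1.05 ± 0.23 (adjusted p = 0.00208). DIT2 levels were -3.85 and -3.87 (mixed) and -3.62 and -3.71 (control) at 92 h, against -6.04 and -5.78 (mixed) and -5.54 and -5.72 (control) at 22 h.

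The size of these rises depended on how arrays were scaled. In 5 scalings (75th percentile, array median, quantile normalization, spike-in, and normexp background correction with quantile normalization), 14 members rose in every one: the regulators IME1, RIM4 and SLZ1, the early genes REC8, HOP2, MEK1, MND1 and MAM1, the middle genes SPS22, SPR28, SSP2 and OSW1, and the late genes SPS100 and DIT2. SPO21 fell in all 5. In the spike-in fit all probes shared 1 estimate of the spread, so its calls do not use the spread of each gene. Scaling to 7 spike-in probes moved the median of all probes to -1.09 for 92 h minus 22 h, and the members' median to 0.17. This scaling shifts all probes of an array alike, so it cannot change the members' gap of 1.26 above all probes. With quantile normalization the members' median was 0.60 and the gap 0.65, and with normexp they were 0.31 and 0.36. The split of members that rose and fell was 37 and 1 with the 75th percentile, 27 and 4 with quantile normalization, 14 and 6 with the spike-in probes, and 25 and 2 with normexp. The shares of all tested probes given above, 36.2% rising and 29.2% falling, are those of the 75th percentile. Counts in the other scalings have no such share beside them here and describe the members only. SLZ1 rose by 4.17 to 6.53 and IME1 by 1.52 to 4.41 over the 5 scalings. In the 16 fits that left out 1 array, 31 of the 38 calls always held. That of IME2 ended without the first arrays of mixed 92 h, control 22 h or control 92 h or the second of mixed 22 h (0.37 to 0.68 over the 16 fits), and that of SPS1 without the first arrays of control 22 h or control 92 h or the second of mixed 22 h or mixed 92 h (0.44 to 0.90). That of MEI4 ended without the first arrays of mixed 22 h, mixed 92 h or control 92 h or the second of control 22 h (0.68 to 1.29), and that of SPO21 without the first array of mixed 92 h or control 22 h (-0.52 to -0.42). The calls of the dim genes REC114, CSM4 and SPO75 ended without 5, 5 and 2 arrays. IME2, ZIP1, SPO11 and SPS1 are among 11 members that rose with the 75th percentile and had a negative difference with the spike-in probes.

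**Figure D3:**
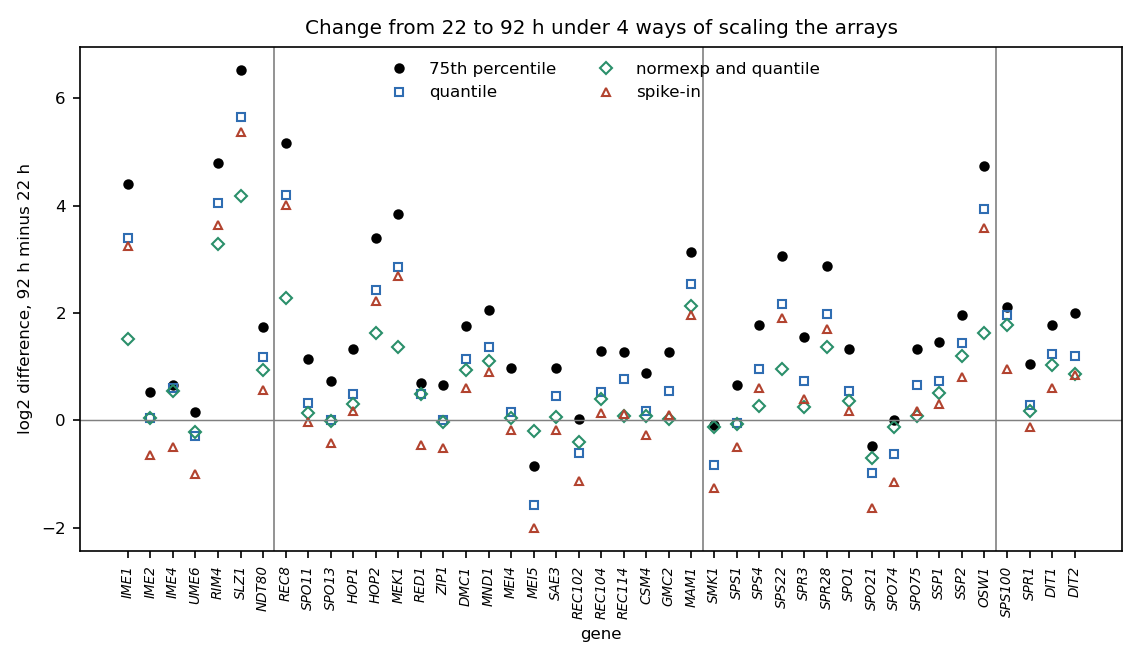
Log2 difference for 92 h minus 22 h (vertical axis) of each tested member (horizontal axis, by role) under 4 ways of scaling the arrays; filled circles are the values used elsewhere in the text. SLZ1, REC8, RIM4 and OSW1 stay well above 0 under all 4, and the spike-in values are the lowest of the 4 for many members.

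After 92 h fewer members changed. From 92 h to 144 h, 9 of 43 members rose and none fell, beside 15.4% of all tested probes that changed (6.34% rising and 9.04% falling). From 144 h to 187 h, again 9 rose and none fell, beside 11.3% of probes that changed (5.81% rising and 5.51% falling). Rises at either later step were found for 8 of 19 tested early genes and 6 of 13 middle genes. They were also found for 1 of 7 regulators (IME2) and 0 of 4 late genes. The shares of all probes above are for single steps, so these counts cannot be set directly against them. The differences between the roles were not tested. Over all members, 23 rose only at the first step, and 3 (DMC1, MND1 and SPR28) rose at all 3 steps. From 22 h to 187 h, 41 members rose and SPO21 fell (-0.85 ± 0.15, adjusted p = 0.000262), beside 76.3% of probes that changed (38.6% rising and 37.7% falling). The dim members MEI5 (1.45 ± 0.56) and SPO74 (1.31 ± 0.45) are among these 41, with values close to the median of 1.23 of the probes never above background. Among the 30 members always above background, the mean level was lowest at 22 h for 29 and highest at 187 h for 18, beside 43.4% and 28.4% of the 5879 probes always above background.

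From 92 h to 144 h the largest rise was that of CSM4, which helps to move chromosomes by their telomeres (2.61 ± 0.33, adjusted p = 0.00146). It was above background on 0 of 4 arrays at 92 h and 3 of 4 at 144 h, so the rise was at least 4.15-fold. CSM4 levels at 144 h were -6.80 and -6.81 (mixed) and -6.66 and -8.24 (control), against -9.46 and -9.04 (mixed) and -9.98 and -10.49 (control) at 92 h. OSW1 rose by a further 1.52 ± 0.20 (adjusted p = 0.00200), SMK1 by 1.28 ± 0.25 (adjusted p = 0.00894), IME2 by 1.05 ± 0.18 (adjusted p = 0.00430) and SPS1 by 0.94 ± 0.23 (adjusted p = 0.0199). SMK1, the wall-formation kinase with no rise at the first step, was at -6.24 and -6.77 (mixed) and -6.74 and -7.26 (control) at 144 h, against -7.44 and -7.29 (mixed) and -8.15 and -9.25 (control) at 92 h, and the times did not overlap. MEK1, DMC1, SPR28 and MND1 rose by 0.85, 0.73, 0.60 and 0.56. In the 16 fits that left out 1 array, 6 of these 9 calls always held, and those of MND1, SPS1 and SPR28 did not.

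From 144 h to 187 h the largest rises were those of SPO75, a gene of spore wall formation (1.70 ± 0.43, adjusted p = 0.0335), GMC2, a synaptonemal complex protein (1.44 ± 0.26, adjusted p = 0.0115), and MEI4 (1.41 ± 0.34, adjusted p = 0.0285). SAE3 rose by 1.08 ± 0.29 and SPO11 by 1.04 ± 0.21 (adjusted p = 0.0174). SPO11 levels at 187 h were -4.53 and -4.99 (mixed) and -4.48 and -5.25 (control), against -5.88 and -5.81 (mixed) and -5.52 and -6.18 (control) at 144 h. MEI4 levels at 187 h were -2.98 and -3.97 (mixed) and -4.85 and -5.09 (control), against -4.94 and -5.82 (mixed) and -5.31 and -6.47 (control) at 144 h. SPO11 did not overlap between the times, and MEI4 did. None of the 9 calls held in all 16 fits that left out 1 array, and without the second control array of 144 h 0 members were called. SPO75, GMC2 and SAE3 were above background on 6, 5 and 6 of 16 arrays, at a step where probes never above background had a median of 0.64.

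**Figure D4:**
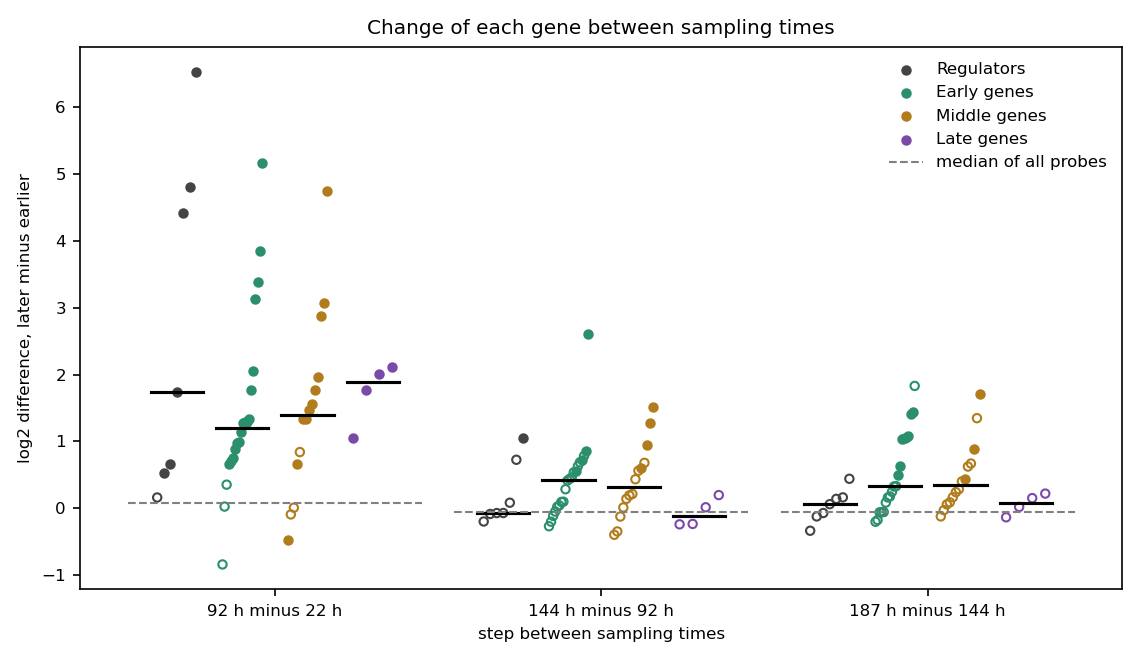
Log2 difference of each member at each step between sampling times (later minus earlier, 4 arrays against 4), by role; filled points passed the test, open points did not or were not tested, black bars are medians by role and the dashed line is the median of all probes. At 92 h minus 22 h the medians stand at 1.21 to 1.89, and at the later steps those of regulators and late genes lie between -0.11 and 0.09.

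Fewer members differed between the kinds of fermentation than between times. Averaged over the 4 times (8 arrays against 8), 6 of 43 members were higher in mixed fermentations (IME2, DMC1, SAE3, SPR28, SPO1 and SPS100) and 1 was lower (SPS4), beside 8.59% of all tested probes that differed (3.22% higher and 5.37% lower). The members' median was 0.16 and that of all probes -0.03. IME2, SPR28 and SPS100 were called higher in all 5 scalings. IME2, SPR28 and DMC1 were called without any single array, with highest adjusted p of 0.0396, 0.0278 and 0.0484. The calls of SAE3, SPO1, SPS4 and SPS100 ended without 10, 13, 13 and 14 of the 16 arrays in turn, with their highest adjusted p between 0.0880 and 0.106. If the arrays of a replicate are 1 vessel sampled 4 times, the p-values are too small: with the vessel as a random block IME2, DMC1 and SPR28 remained, and with 1 mean per vessel (2 against 2) 0 members passed.

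IME2, the meiotic kinase, stood at -4.31 and -4.38 on the mixed arrays at 22 h, -3.10 and -3.73 at 92 h, -1.67 and -2.25 at 144 h, and -1.83 and -1.86 at 187 h. On the control arrays it stood at -4.41 and -3.97 at 22 h, -3.91 and -4.23 at 92 h, -3.22 and -3.61 at 144 h, and -3.21 and -3.29 at 187 h. The kinds overlapped at 22 h and were apart at the 3 later times. The average difference was 0.84 ± 0.12 (adjusted p = 0.0108; 0.96 on slide 1 and 0.72 on slide 2). At 187 h it was 1.41 ± 0.25 (adjusted p = 0.0263), which is 2.66-fold.

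SPR28, the septin, was at -2.28 and -2.01 on the mixed arrays at 187 h, against -3.13 and -3.18 on the control arrays. At 22 h it was at -6.35 and -6.42 (mixed) and -6.90 and -6.57 (control), and the kinds did not overlap at any of the 4 times. Its average difference was 0.75 ± 0.09 (adjusted p = 0.00669; 0.74 on slide 1 and 0.77 on slide 2). DMC1, the recombinase, was 0.56 ± 0.09 higher on average (adjusted p = 0.0148; slides 0.34 and 0.77), with -1.70 and -1.47 on the mixed arrays and -2.28 and -2.09 on the control arrays at 187 h. SPO1, a phospholipase-like protein of the prospore membrane, was 0.43 ± 0.11 higher (adjusted p = 0.0386; slides 0.50 and 0.36).

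SPS100, the spore wall gene, had the largest average difference of the members, 1.07 ± 0.28 (adjusted p = 0.0397), but it was unequal between the slides, at 0.57 on slide 1 and 1.56 on slide 2. On the mixed arrays of 92 h, 144 h and 187 h it was -0.80, -1.05 and -0.97 in replicate 1 and 0.05, 0.33 and 0.73 in replicate 2. The control arrays at the same times lay between -1.97 and -1.20. The second mixed replicate thus stood apart from the first at each of these times. SAE3, a loader of Dmc1, was 0.84 ± 0.20 higher (adjusted p = 0.0318) and was above background on 4 of 8 mixed and 2 of 8 control arrays. SPS4 was lower in mixed fermentations (-0.54 ± 0.13, adjusted p = 0.0317; slides -0.26 and -0.82).

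**Figure D5:**
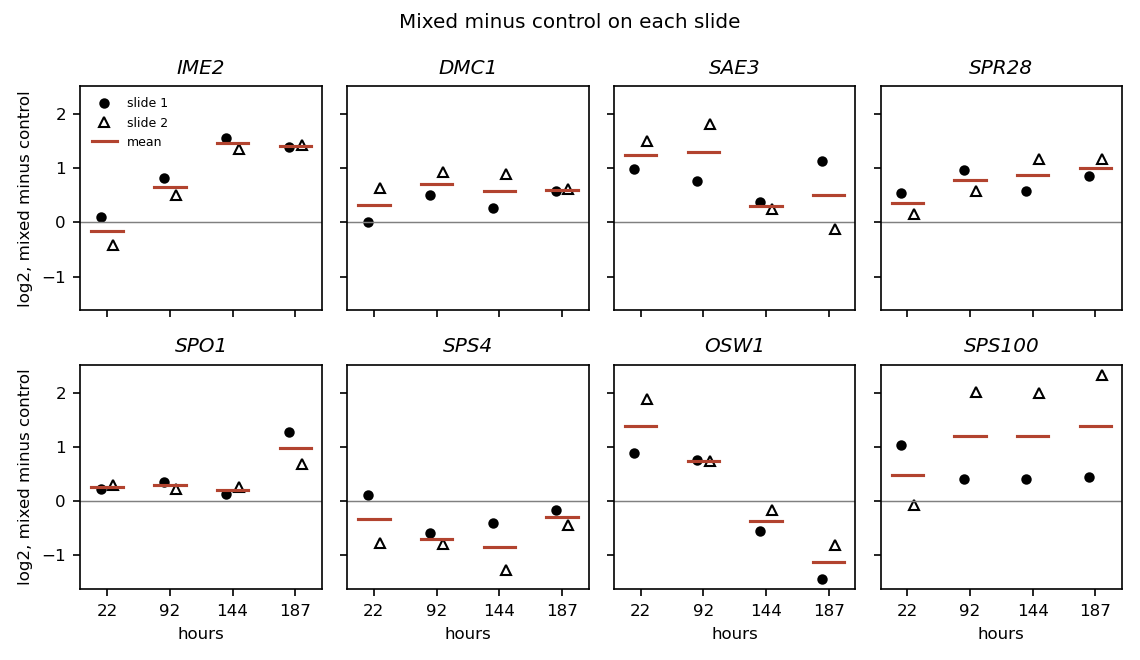
Mixed minus control on the log2 scale (vertical axis) at each sampling time in hours for the 8 members called in a comparison of the kinds, with each slide as a point and the mean as a bar. IME2 stands near 0 at 22 h and at 1.36 to 1.56 at 144 h on both slides, OSW1 is above 0 at 22 h and below 0 at 187 h, and the SPS100 slides differ.

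At single times (2 arrays against 2), members were called only at 187 h. IME2, SPR28 (1.01 ± 0.17, adjusted p = 0.0263) and SPO1 (0.97 ± 0.22, adjusted p = 0.0343) were higher in mixed fermentations and OSW1 was lower (-1.12 ± 0.29, adjusted p = 0.0453), beside 7.28% of all tested probes that differed (2.81% higher and 4.46% lower). SPO1 levels were -2.45 and -3.30 on the mixed arrays and -3.71 and -3.98 on the control arrays. OSW1 levels were -3.23 and -3.18 on the mixed arrays and -1.79 and -2.36 on the control arrays, with no overlap. None of these 4 was called in all 5 scalings. With the spike-in probes the adjusted p of IME2, SPR28, SPO1 and OSW1 was 0.143, 0.727, 0.822 and 0.453, and OSW1 was called in 2 of 5. These spike-in p-values rest on 1 spread shared by all probes, unlike those of the other scalings. When 187 h was fitted alone 0 members passed, and likewise without the first control array of 187 h, or without either control array of 92 h. In the 16 fits that left out 1 array, the call of SPO1 ended in 7, with 0.55 without the first mixed array of 187 h and 1.40 without the second. The call of OSW1 ended in 13 (-1.41 to -0.84), and those of IME2 and SPR28 in 4 each, these being the 3 control arrays just named and the second mixed array of 187 h.

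At 22 h, 92 h and 144 h limma called 0 members, with 5, 11 and 4 of the 43 members at an unadjusted p under 0.05. Of the 6184 tested probes, 390, 348 and 568 had an unadjusted p under 0.05 at these times. The share of all probes called was 0.0% at 22 h, 0.0162% at 92 h and 0.0% at 144 h. At 92 h, IME2 was 0.65, DMC1 0.72 and SPR28 0.78 higher in mixed fermentations, and at 144 h 1.46, 0.59 and 0.87, but their lowest adjusted p at those times was 0.218, for IME2 at 144 h. No change of the difference with time passed for any probe (0.0% of 6184, 441 at an unadjusted p under 0.05). The member with the lowest adjusted p in that test was OSW1 (0.365), with mixed minus control at 1.38 at 22 h, 0.75 at 92 h, -0.36 at 144 h and -1.12 at 187 h, and 4 members had an unadjusted p under 0.05. At 22 h neither control array was well above background for OSW1, so its difference there is known only as at least 1.47-fold, and its test of variation with time rests in part on that time.

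Other genes of the pathway were taken from 3 lists. Of 29 other genes of spore formation, 25 rose from 22 h to 92 h and 1 fell, with a median of 1.69, beside 36.2% of all tested probes that rose and 29.2% that fell. They include MPC54, the plaque partner of SPO21 (3.32 ± 0.10), AMA1, the meiotic activator of the anaphase-promoting complex (3.84 ± 0.12), and DON1, a leading edge protein (2.57 ± 0.11), while RRT8, a lipid droplet protein of wall formation, fell by 0.94 on the log2 scale. Of 15 other prophase genes 11 rose and 0 fell, among them SPO22 (4.11 ± 0.20) and ECM11 (4.06 ± 0.18), both of the synaptonemal complex, and MLH3, a crossover nuclease subunit (2.00 ± 0.13). Of 20 upstream signals and repressors 9 rose and 3 fell, with a median of 0.18, a share of rises nearer to that of all tested probes. RIM8 of the pH-sensing pathway (1.49 ± 0.12), the stress factor MSN4 (1.64 ± 0.14) and the nutrient-signalling kinase RIM15 (0.70 ± 0.08) rose, and the kinase MCK1 (-0.72 ± 0.12), the pH sensor RIM21 (-0.31) and MSN2 (-0.23) fell.

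At the later steps, 8 and 5 of the 29 spore formation genes rose and 0 fell, led by the acetate transporter ADY2 (1.07 ± 0.15), LDS2 (1.44 ± 0.25) and DON1 (0.56 ± 0.11) from 92 h to 144 h and by RRT8 (1.28 ± 0.17), GAS4 (0.91 ± 0.15) and CDA1 (0.71 ± 0.17) from 144 h to 187 h. Of the prophase genes 1 rose from 92 h to 144 h (SPO22, 0.94), and 2 rose (SPO16, 0.70, and ECM11, 0.65) and 1 fell (LRS4, -0.35) from 144 h to 187 h. Of the upstream genes 2 fell at the first of these steps (RFM1, -0.35, and RIM13, -0.38) and 1 rose at the second (RIM101, 0.38). Of all tested probes, 6.34% rose and 9.04% fell at the first of these steps, and 5.81% rose and 5.51% fell at the second. The prophase and upstream counts lie mostly near these shares, and differences from them were not tested. In the average over times, 5 of the 29 spore formation genes were higher in mixed fermentations, with ADY2 (0.56 ± 0.11), SMA1 (0.55 ± 0.11) and SPS19 (0.57 ± 0.13) at the lowest p, beside 0 of 15 prophase genes and 1 of 20 upstream genes (RIM8, 0.34 ± 0.09). Of all tested probes, 3.22% were higher and 5.37% lower in this average, and the upstream count lies near that share.

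Genes that cells with both mating types normally hold silent were also detected. Of 20 haploid and mating-type genes, 17 were well above background on all 16 arrays, the other 3 (STE3, MF(ALPHA)1 and AGA2) on 12 to 14, and none was at background throughout. Of the 6256 gene probes, 5879 were well above background on all 16 arrays and 34 on none. Detection by this flag therefore does not set these genes apart from most probes. From 22 h to 92 h 14 rose and 2 fell, among them STE3, the receptor for a-factor (5.84 ± 0.20), MF(ALPHA)1, an alpha-factor gene (3.87 ± 0.29), and MFA1, an a-factor gene (2.49 ± 0.13), while NEJ1 (-0.92) and FAR1 (-0.86) fell. Of all tested probes, 36.2% rose and 29.2% fell at this step. STE3 and MF(ALPHA)1 were well above background on 12 of 16 arrays. Their levels at 22 h were -10.34 to -9.24 and -10.16 to -9.09, so these 2 rises start from a dim baseline. The 20 genes' summed linear level was 0.95 and 0.96 on the mixed arrays at 22 h and 1.89 and 1.83 at 92 h. It was 1.97 and 1.86 at 144 h, and 2.33 and 1.98 at 187 h. On the control arrays the sums were 1.02 and 0.99 at 22 h, 1.78 and 1.73 at 92 h, 1.99 and 1.84 at 144 h, and 2.15 and 1.98 at 187 h. These sums moved with the members over time, and their part in the members' rise was not tested. At the later steps 4 and 5 of the 20 rose and 0 fell, with STE5 (0.68 and 0.79), STE18 (0.85 and 1.05) and GPA1 (0.57 and 0.57) at the lowest p at both. Of all tested probes, 6.34% and 5.81% rose and 9.04% and 5.51% fell at these 2 steps. In the average over times, GPA1 was higher in mixed fermentations (0.37 ± 0.09) and AXL1 (-0.29 ± 0.07) and STE6 (-0.24 ± 0.06) were lower. These counts of 1 and 2 of 20 lie near the 3.22% of all tested probes that were higher and the 5.37% that were lower.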

How the data were processed

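RNA of the S. cerevisiae cells was hybridised to 16 one-colour Agilent arrays. Scanner output of Agilent Feature Extraction 10.7.3.1 gave, per the file headers, a background-corrected intensity and quality flags per spot, and every gene probe had 2 spots. The intensity was used as log2, the 2 spots were averaged after 50 outlier spots were left out, and each array's 75th percentile was subtracted. Saturation was found for 0 gene spots. A table of log2 values deposited by the authors matched the scanner values, up to a shift per array, to within 0.05 for at least 99.58% of probes. Its array medians ran from 9.42 to 11.2, so it was used only as an alternative within times.

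Probes well above background on at least 2 arrays were kept (6184 of 6256). The limma fit gave each group its own mean (degrees of freedom 8 residual, 3.26 prior). With the spike-in scaling the prior was infinite, so that fit gave all probes the same spread. The p-values were adjusted by Benjamini and Hochberg over all probes kept, with a threshold of 0.05. The number of arrays limits the precision. A fold written "at least" sets the bright group's mean against the higher of the dim probe's signal and the lowest signal well above background, per array.

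The members, the lists of other genes and the tests were chosen with earlier results of these data known. Named genes were members called between the kinds, up to 5 per direction at each step, a set of regulators and stage genes, and up to 3 per direction of each other list by smallest p; MND1, MAM1, HOP2, REC104, REC102, REC114, RED1, MEI5, SPO74 and SPS22 were added after their values were seen, where they complete a step or a complex. Alternatives were 4 other scalings, other filters, a constant of 16 added, slide and vessel blocks, single times, and single arrays left out. Deviations of same-numbered mixed and control arrays from their group means had correlations of -0.47, 0.24, 0.25 and 0.11 at the 4 times. The main fit therefore did not pair samples by number. Differences given per slide set same-numbered arrays against each other and are descriptive only. R 4.3.3, limma 3.58.1, statmod 1.5.0 and Python 3.11.15 were used. Names came from the scanner files' open reading frame names, with 5756 of 6256 matched to a RefSeq table and 500 not. Sequences were not analysed here.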

Additional observations from a re-analysis of the deposited data

How the results depend on the processing

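Over all 1744 alternatives for the called members, 1482 kept direction and call, 247 kept direction but not the call, and 15 turned the direction. For 92 h minus 22 h the spike-in scaling turned IME2 (-0.64), IME4 (-0.50), SPO11 (-0.021), SPO13 (-0.42), RED1 (-0.46), ZIP1 (-0.50), MEI4 (-0.18), SAE3 (-0.19), CSM4 (-0.28), SPS1 (-0.49) and SPR1 (-0.12), normexp turned SPO13 (-0.013), ZIP1 (-0.019) and SPS1 (-0.062), and quantile normalization SPS1 (-0.047). With the spike-in probes 20 members were called for 92 h minus 22 h (37 rises and 1 fall with the 75th percentile), 2 for 144 h minus 92 h, 4 for 187 h minus 144 h, 3 at 22 h (SAE3, MEI5 and OSW1) and 2 at 187 h (MEI5 and REC114, neither called with the 75th percentile) between the kinds, and 1 for variation with time (OSW1). In the spike-in fit all probes shared 1 spread, so its calls cannot be set directly against those of the other scalings. The spike-in scaling moved the median of all probes to -1.09, -0.36 and -0.32 at the 3 steps, and to 0.51 for mixed minus control at 22 h. At 22 h SAE3 was well above background on no array, and MEI5 and OSW1 on neither control array. The share of all probes called in the spike-in fit is not given here, so its counts describe the members only. Normexp gave 9 members at 187 h between the kinds. In the average over times the vessel block gave 3 calls, the mean of each vessel 0 (chosen after seeing the data) and the average over 22, 92 and 144 h 0. Fitting only 187 h gave 0 calls between the kinds, and only 144 and 187 h gave 1 call for that step; fewer arrays entered those fits. For the other listed changes the cause was not tested.

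The members' median log2 difference with array median, quantile and spike-in scaling was 0.20, 0.12 and 0.28 for the average between the kinds, 1.26, 0.60 and 0.17 for 92 h minus 22 h, and 0.25, 0.17 and -0.10 for 144 h minus 92 h. For 187 h minus 144 h it was 0.30 with the array median and -0.042 with the spike-in probes. Leaving out 1 array gave 33 to 39 called members for 92 h minus 22 h, 6 to 12 for 144 h minus 92 h, 0 to 10 for 187 h minus 144 h, 40 to 42 for 187 h minus 22 h, 3 to 9 in the average between the kinds, 0 to 3 at 22 h, 0 to 0 at 92 h and 144 h, 0 to 5 at 187 h, and 0 to 2 for variation with time. The average fell to 3 calls without any 1 of 8 arrays (mixed 22 h replicate 2, both mixed of 92 h, mixed 144 h replicate 2, control 92 h replicate 2, control 144 h replicate 2 and both control of 187 h). The step from 144 h to 187 h had 0 calls without control 144 h replicate 2, 2 without control 187 h replicate 1, 4 without mixed 144 h replicate 1, and 5 without mixed 144 h replicate 2 or either control array of 92 h. Between the kinds, 187 h had 0 calls without control 187 h replicate 1 or either control array of 92 h and 2 without either mixed array of 92 h, and without control 22 h replicate 1 there were 3 calls at 22 h and 2 for variation with time. With the replicate number, which is also the slide, as a block, the counts were 10 in the average, 5 at 187 h, and 38, 10 and 11 at the 3 steps.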
